A study of Canis lupus familiaris with 23 samples.

Results

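Organoids grown from dog hair follicles were compared in 3 differentiation media, pooled, and in expansion medium. The comparison used 8 of the 23 libraries of the series: the 6 libraries whose titles carry DF, 2 for each differentiation medium, and the 2 later-passage libraries of follicle organoids in expansion medium with no Tgf-beta inhibitor named. In all 8, organoids of passages 3 to 6 were collected after 7 days, and the total RNA of their bulk cells was counted by CEL-seq2, a method that tags and counts transcripts at their 3′ ends. The first medium was differentiation medium with no factor named as withdrawn, the second was differentiation medium lacking Noggin and R-Spondin-1, and the third lacked Noggin, R-Spondin-1 and Forskolin. The labels give no further recipe of either kind of medium, no strain or age of the dogs, and no statement that replicates came from separate dogs or cultures, so the p-values measure only the spread between these libraries, which may be technical. The other 15 libraries came from skin, isolated follicles and epidermis and from further expansion cultures. They entered the fit to estimate that spread, and also took part in the filter on low counts and in the scaling. Some results below set the differentiation libraries beside them.

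Epidermal keratinocytes divide in the basal layer, where they make the keratins KRT5 and KRT14. Cells that leave it stop dividing, switch to KRT1 and KRT10, and end as flat corneocytes held in a cornified envelope of cross-linked involucrin, loricrin and other proteins. In organoid culture, R-Spondin-1 strengthens Wnt signals, Noggin blocks BMP signals and Forskolin raises cAMP, and their withdrawal is a common way to let epithelial cells leave the dividing state.

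The libraries were unequal in depth and in kind of file. The 6 differentiation libraries held 235971 to 689816 counts in entries naming a gene, against 3545730 and 2530484 in the expansion libraries, so a count of 0 allowed up to 4.35 to 12.7 CPM (a library's counts brought to a common total) in differentiation libraries and up to 0.846 and 1.19 CPM in expansion libraries, for counting error only. The differentiation files listed 18113 entries and the other files 20448, with 17141 in both, and the differentiation libraries alone carry the shorter list. Every comparison of the differentiation media with other libraries sets one kind of file against the other. In these comparisons medium and kind of file cannot be told apart. Comparisons among the differentiation libraries themselves stay within the same kind of file. Of mitochondrially encoded transcripts, the differentiation libraries held 8.05 to 17.2% of counts and the expansion libraries 17.4 and 15.5%. In bulk RNA, fewer cells of a type and less RNA per cell cannot be told apart.

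The differentiation libraries also stood apart by replicate number. The first principal component, over 5031 genes, held 47.4% of the variance and placed the 3 replicate 2 differentiation libraries at 42.6 to 47.5, far from the 3 replicate 1 libraries at -16.6 to -12.6 and the expansion libraries at -47.8 and -39.8. The differences between replicate 2 and replicate 1 ran together in the 3 media, with correlations across genes of 0.59, 0.47 and 0.49, genes not being independent replicates. The replicate 2 differentiation libraries also held fewer counts, 235971 to 405354, against 431103 to 689816 in replicate 1. Their mitochondrially encoded share was 8.05 to 12.7%, against 15.1 to 17.2%. The part of depth in the split was not tested. The labels do not say what the replicate number stands for. Values of the genes described in full are therefore given by replicate.

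**Figure D1:**
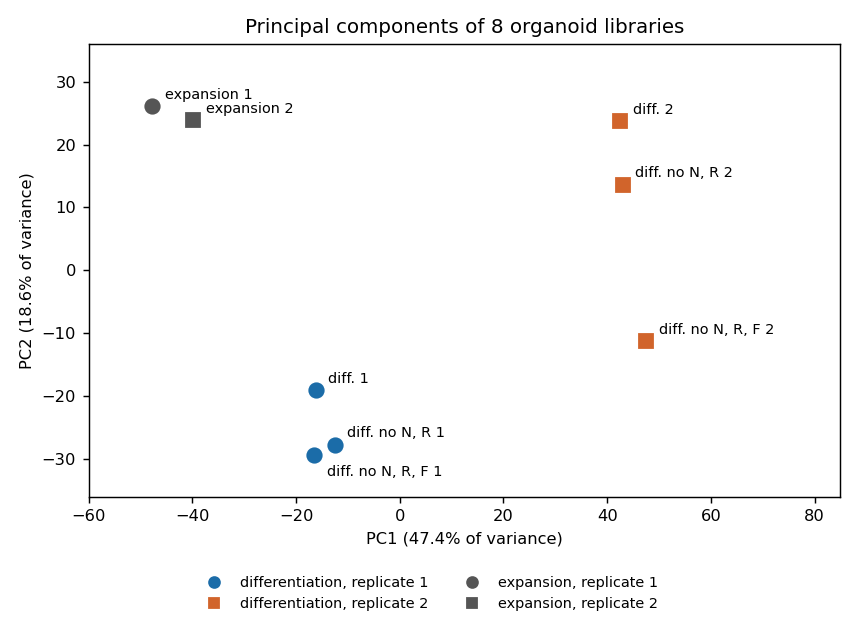
Each point is 1 of the 8 organoid libraries on the first 2 principal components of log2 CPM over 5031 genes, with the share of variance on each axis (N, Noggin; R, R-Spondin-1; F, Forskolin). The 3 replicate 2 differentiation libraries lie at 42.6 to 47.5 on the first component, on the far side of replicate 1 from expansion medium.

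Pooled over the 3 media, 429 of 9753 tested genes were higher than in expansion medium (4.40%) and 986 were lower (10.1%), by edgeR's quasi-likelihood test at a Benjamini-Hochberg adjusted p under 0.05, with 2948 genes at an unadjusted p under 0.05. The median log2 change of all tested genes was -0.14. Counts of rises and falls in the gene lists below are to be set against these shares of 4.40% and 10.1%. Rises made up 30.3% of the calls with the main scaling and 39.5% with size factors, and 48.0% with DESeq2, which changes the test as well. All 6 differentiation libraries lay above both expansion libraries for 769 tested genes (7.88%) and below both for 1694 (17.4%). Among the calls, this held for 353 of the 429 rises and 911 of the 986 falls. Leaving out expansion replicate 1 left 413 calls and leaving out expansion replicate 2 left 598, against 1415 with both, so the count rests on having both expansion libraries. Among 113 called genes picked for naming, 37 kept their call when each of the 8 libraries was left out in turn, among them CLDN4, ISG15, KRT7, ENO2, PFKP, CD9, KLF4, RAN, NUP54, MRPS31, CA2, CLDND1, SPINT2, GAPDH, IDI1, NDUFB3, PTGS2, RPL17, RPL27, DCN, KRT34, KRTAP3-1 and KRTAP8-1. The other called genes named below lost it in at least 1 of these fits, 69 of the 113 without expansion replicate 1 and 44 without expansion replicate 2. With voom, ASPRV1, AXIN2, BAMBI, CXCL14, DUSP1, EGR1, ID4, KLK5 and SPINK9 were not called.

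The number of calls differed between the replicates. With the replicate 1 differentiation libraries alone, 259 genes were higher (2.66%) and 700 lower (7.18%), with a median of -0.23. With replicate 2 alone, 831 were higher (8.52%) and 1608 lower (16.5%), with a median of -0.42. In these fits each medium has a single library, which is assumed to vary like the other groups. List counts by replicate below are to be set against the shares of the same replicate. Of the pooled rises, 134 were called in both sets, as were 521 of the pooled falls. Replicate 2 differed from replicate 1 within the differentiation media for 334 genes in the higher direction (3.42%) and 487 in the lower (4.99%). Among the called genes named here, ASPRV1, AXIN2, BAMBI, CDK1, CHAC1, COL3A1, CSTB, ELOVL6, EVPL, FST, GPRC5C, GPX2, ICAM1, ID4, ITGA5, KLK5, KRT5, KRT80, LTBP3, MCM4, MMP1, PI3, PMEPA1, PSAT1, SLPI, SOX9, SPINK9 and THBS1 were not called with replicate 1 alone. AXIN2, BAMBI, COL1A1, COL3A1, COL5A1, CXCL14, DUSP1, IRF1, KRT8 and TSPAN9 were not called with replicate 2 alone.

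CLDN4, the tight junction protein claudin 4, and ISG15, a ubiquitin-like protein made in response to interferon, rose in every differentiation library. In the order differentiation medium, the same lacking Noggin and R-Spondin-1, and the same lacking all 3 factors, which is kept below, CLDN4 had 139, 163 and 122 CPM in replicate 1 and 214, 192 and 270 CPM in replicate 2 of the differentiation media, against 2.02 and 3.41 CPM in expansion medium. No differentiation library came near either expansion library. The pooled log2 change of CLDN4 was 6.04 ± 0.75 (SE, adjusted p = 3.46e-05), and it was called in both replicate sets, at 5.69 and 6.36. ISG15 had 62.7, 91.2 and 72.4 CPM in replicate 1 and 77.0, 50.5 and 265 CPM in replicate 2 of the differentiation media, against 0.288 and 3.84 CPM in expansion medium. The change of ISG15 was 5.59 ± 0.81 (SE, adjusted p = 1.46e-04), and all 6 differentiation libraries also lay above each of the 17 other libraries of the series.

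CD9, a tetraspanin of the keratinocyte surface, and KRT10, the keratin of suprabasal epidermis, fell. CD9 had 134, 118 and 159 CPM in replicate 1 and 231, 172 and 209 CPM in replicate 2 of the differentiation media, against 954 and 1062 CPM in expansion medium. Its log2 change was -2.58 ± 0.28 (SE, adjusted p = 1.03e-05), and the 6 libraries lay below all 17 others, tissue included. KRT10 had 545, 547 and 645 CPM in replicate 1 and 228, 396 and 330 CPM in replicate 2 of the differentiation media, against 3323 and 1527 CPM in expansion medium. The 6 libraries were again all below both expansion libraries, and the log2 change was -2.44 ± 0.47 (SE, adjusted p = 0.00172). The KRT10 call was lost without expansion replicate 1, at -1.77, and with the inhibitor cultures of the same passages as the base, at -1.09. KRT1, the partner of KRT10, had 0 to 2.52 CPM in differentiation media and 4.61 and 1.71 CPM in expansion medium, and was not called. Of 24 suprabasal differentiation genes 19 were tested, and 1 rose, 3 fell and 15 were not called. Their median log2 change was 0.13, and 10 of the 19 had a positive change. KRT10 and KLF4 were among the falls and ASPRV1 was the rise, so the list as a whole did not fall in the pooled comparison. The pooled median averages replicate sets that differed. The list median was -0.79 with replicate 1 alone, against -0.23 for all tested genes. It was 0.36 with replicate 2 alone, against -0.42.

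**Figure D2:**
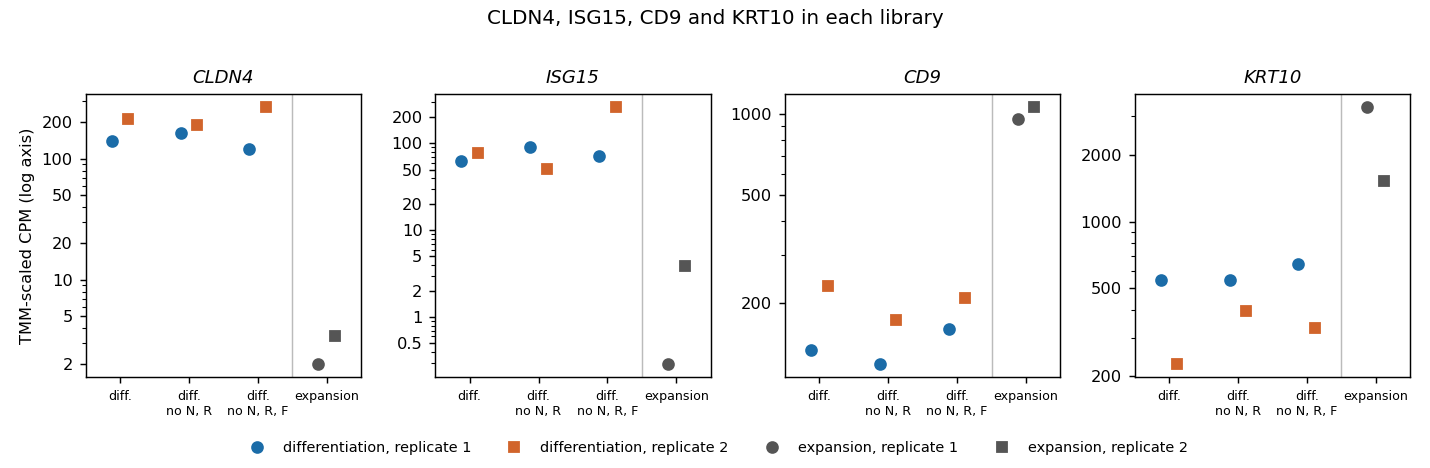
CLDN4, ISG15, CD9 and KRT10 in each library, in CPM on a log axis, by medium (N, Noggin; R, R-Spondin-1; F, Forskolin), with replicate 1 as circles and replicate 2 as squares. All 6 differentiation libraries lie above both expansion libraries for CLDN4 and ISG15 and below both for CD9 and KRT10.

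The cornified envelope genes divided the replicates. Of 26 listed genes 21 passed the filter on low counts, and 3 of these rose and 1 fell in the pooled comparison, with a median log2 change of 2.11. With replicate 1 alone 0 rose and 2 fell, with a median of -0.94, whereas with replicate 2 alone 15 rose and 0 fell, with a median of 2.88. The replicate term itself was called for 14 of the 21, all higher in replicate 2.

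IVL, involucrin, the early scaffold protein of the envelope, had 1924, 1880 and 1869 CPM in replicate 1 and 10166, 12918 and 12742 CPM in replicate 2 of the differentiation media, against 372 and 2043 CPM in expansion medium. Replicate 1 thus lay between the expansion libraries and replicate 2 above both. IVL was not called in the pooled comparison, at 2.51 ± 1.01 (SE, edgeR adjusted p = 0.0967), and was called with replicate 2 alone, at 3.30 (adjusted p = 0.0126).

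FLG, filaggrin, which bundles keratin filaments in the granular layer, had 5.08, 12.3 and 2.34 CPM in replicate 1 and 263, 520 and 52.2 CPM in replicate 2 of the differentiation media, against 12.96 and 10.2 CPM in expansion medium. LOR, loricrin, the main envelope protein, had 6.77, 29.6 and 2.34 CPM in replicate 1 and 476, 543 and 73.9 CPM in replicate 2, against 14.7 and 15.8 CPM in expansion medium. Neither was called pooled, with edgeR adjusted p-values of 0.0694 for FLG and 0.131 for LOR. Both were called in replicate 2 alone, at 4.04 and 4.13, and for both the replicate term was called.

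KLK5, a serine protease that sheds corneocytes, was at 0 in the replicate 1 differentiation libraries and at 94.5, 98.4 and 69.6 CPM in replicate 2, against 0.288 and 0.427 CPM in expansion medium. Its pooled change was 6.402 ± 1.86 (SE, adjusted p = 0.0258). With the replicate number as a block within the differentiation libraries it was 2.75 and not called (adjusted p = 0.996). PI3, elafin, an elastase inhibitor cross-linked into the envelope, was high in both sets, at 454, 636 and 528 CPM in replicate 1 and 3973, 4298 and 5743 CPM in replicate 2 of the differentiation media, against 15.3 and 144 CPM in expansion medium. The pooled change of PI3 was 5.02 ± 1.30 (SE, adjusted p = 0.0139), with 2.76 in replicate 1 alone, where the adjusted p was 0.0691, and 4.16 without expansion replicate 1, also not called. EVPL, envoplakin, which links the envelope to desmosomes, rose by 2.11 ± 0.63 (SE, adjusted p = 0.0301), also in replicate 2 alone and not in replicate 1 alone. ASPRV1, the skin protease that processes filaggrin, had 4.67 to 22.2 CPM in replicate 1 and 30.4 to 627 CPM in replicate 2 of the differentiation media, against 5.18 and 2.56 CPM in expansion medium, and rose by 4.57 ± 1.49 (SE, adjusted p = 0.0438).

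**Figure D3:**
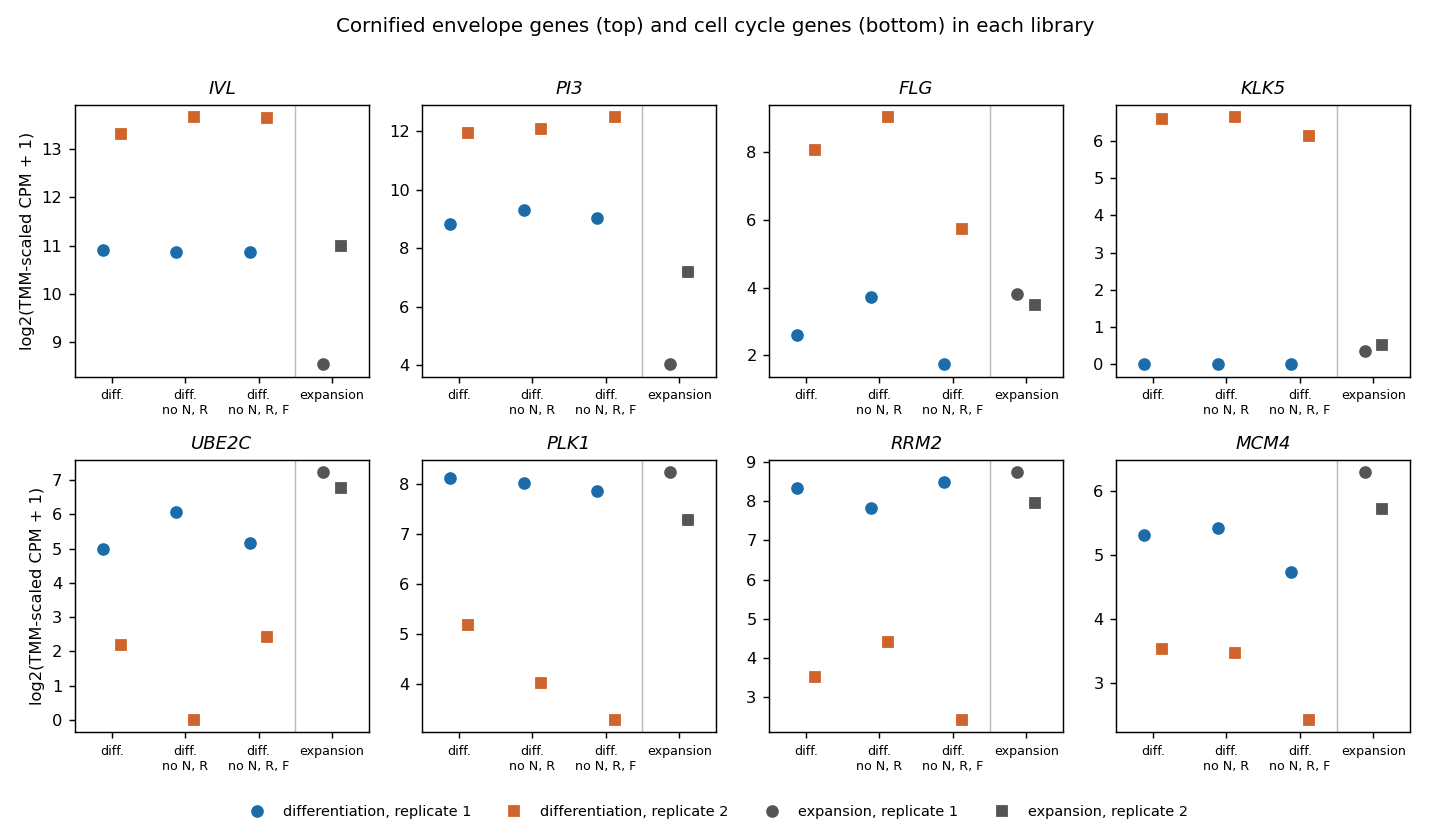
Levels of 4 cornified envelope genes (top) and 4 cell cycle genes (bottom) in each library, as log2(CPM + 1), by medium (N, Noggin; R, R-Spondin-1; F, Forskolin), with replicate 1 as circles and replicate 2 as squares. In the differentiation media, IVL, PI3, FLG and KLK5 are higher and UBE2C, PLK1, RRM2 and MCM4 lower in replicate 2 than in replicate 1.

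The cell cycle genes divided the replicates in the opposite direction. In the S phase list 29 of 31 genes were tested and 4 fell and 0 rose, with a median of -0.68. In the G2 and mitosis list 33 of 38 were tested and 8 fell and 0 rose, with a median of -0.98. With replicate 1 alone 3 S phase and 3 mitotic genes fell, with medians of -0.16 and -0.37, against 21 and 27 with replicate 2 alone, with medians of -3.31 and -4.41. The replicate term was called, lower in replicate 2, for 16 S phase and 19 mitotic genes. Members such as CCNB1, CDK1 and HMGB2 had 0 to 2 counts in each replicate 2 library, so the replicate 2 medians are imprecise. The summed G2 and mitosis list moved less. It had 2805, 2498 and 2418 CPM in replicate 1 and 903, 861 and 709 CPM in replicate 2 of the differentiation media, against 2949 and 1887 CPM in expansion medium.

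UBE2C, the ubiquitin-conjugating enzyme of mitotic exit, had 30.5, 66.5 and 35.0 CPM in replicate 1 and 3.501, 0 and 4.35 CPM in replicate 2 of the differentiation media, against 148 and 107 CPM in expansion medium, a pooled change of -2.37 ± 0.58 (SE, adjusted p = 0.00995). CCNB1, cyclin B1, which drives entry into mitosis, had 13.6, 9.86 and 21.0 CPM in replicate 1 and 0, 5.05 and 0 CPM in replicate 2, against 60.5 and 27.3 CPM in expansion medium (-2.22 ± 0.50, adjusted p = 0.00576). For both genes all 6 differentiation libraries lay below the expansion libraries. MCM4, a subunit of the replicative helicase, had 39.0, 41.9 and 25.7 CPM in replicate 1 and 10.5, 10.1 and 4.35 CPM in replicate 2 of the differentiation media, against 77.5 and 51.6 CPM in expansion medium (-1.48 ± 0.49, adjusted p = 0.0483). MCM4 lost its call in 14 of 26 alternatives, among them size factor scaling (-1.40) and DESeq2 (-1.44). The tested genes that were called also held CDK1, the kinase of mitosis, HMGB2, a chromatin protein of dividing cells, and DUT, which removes dUTP before replication. PLK1, a mitotic kinase, and RRM2, a subunit of ribonucleotide reductase, were chosen for display after their values were seen. In the differentiation media PLK1 had 279, 259 and 234 CPM in replicate 1 and 35.0, 15.1 and 8.69 CPM in replicate 2, against 301 and 154 CPM in expansion medium. RRM2 had 322, 227 and 360 CPM in replicate 1 and 10.5, 20.2 and 4.35 CPM in replicate 2, against 426 and 250 CPM in expansion medium. Neither was called in the pooled comparison.

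Keratins of the basal layer and of activated keratinocytes mostly missed the test. Of 16 basal keratinocyte and hemidesmosome genes 14 were tested, 0 rose and 1, KRT5, fell, with a median of -0.05. KRT5 had 19389, 17138 and 21917 CPM in replicate 1 and 10268, 6573 and 14420 CPM in replicate 2 of the differentiation media, against 37329 and 34229 CPM in expansion medium. All 6 lay below, by -1.28 ± 0.40 (SE, adjusted p = 0.0384), but the call was lost in 9 of the alternative settings, the replicate 1 libraries alone among them (-0.88). KRT14, its basal partner, overlapped between the media, with a change of 0.20 ± 0.42 (edgeR adjusted p = 0.785). TP63, the transcription factor of basal epithelia, changed by -0.51 ± 0.35 (adjusted p = 0.338), and KRT15, a keratin of follicle stem cells, by 0.97 ± 0.79 (adjusted p = 0.427). The wound-induced keratins KRT6A (-0.75 ± 0.37) and KRT17 (1.09 ± 0.51) did not pass either. MKI67 and LGR5, markers of division and of follicle stem cells, were not among the tested genes.

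Among genes of mucosal and simple epithelia, the keratins KRT7, KRT8 and KRT80 rose. Of 16 listed genes 10 were tested, and these 3 rose and 0 fell, with a median of 1.69. KRT7, a keratin of glandular epithelia, had 15.2, 29.6 and 16.4 CPM in replicate 1 and 52.5, 55.5 and 47.8 CPM in replicate 2 of the differentiation media, against 2.59 and 2.13 CPM in expansion medium. The 6 libraries lay well above, by 3.76 ± 0.63 (SE, adjusted p = 4.63e-04), in both sets. KRT80, a keratin found in many differentiated epithelia, had 13.6, 9.86 and 18.7 CPM in replicate 1 and 221, 90.9 and 60.9 CPM in replicate 2, against 2.59 and 5.97 CPM in expansion medium (3.80 ± 0.96, adjusted p = 0.0120), and was not called in replicate 1 alone, nor without either expansion library (3.28 and 4.42). KRT8, a keratin of simple epithelia, rose by 1.64 ± 0.51 (adjusted p = 0.0370) at 3.501 to 17.4 CPM in differentiation media and 2.59 and 3.41 CPM in expansion medium, where single counts weigh. Sweat gland cells share KRT7 and KRT8, and CA2, carbonic anhydrase 2, of the same list, fell by 4.20 on the log2 scale.

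Other junction and surface genes split. Of 19 tight junction genes 11 were tested, with 1 rise, CLDN4, and 1 fall, CLDND1, a claudin-like membrane protein, at -1.77 ± 0.31 (SE, adjusted p = 7.84e-04). Of 16 desmosome and adherens junction genes 14 were tested, 0 rose and 3 fell, with a median of -0.37. DSP, desmoplakin, which ties keratin to desmosomes, had 351, 399 and 343 CPM in replicate 1 and 270, 596 and 1052 CPM in replicate 2 of the differentiation media, against 1400 and 1078 CPM in expansion medium (-1.38 ± 0.32, adjusted p = 0.00673). Its replicate 2 library without all 3 factors came close to the expansion libraries, the others did not. CDH1, the adhesion protein E-cadherin, fell by 1.18 ± 0.30 (adjusted p = 0.0119) and CTNNA1, alpha-catenin, which links cadherins to actin, by 1.23 ± 0.26 (adjusted p = 0.00363) on the log2 scale. Of 21 tetraspanins and their partners 16 were tested, with CD9 lower and 2 higher: CD81, another tetraspanin, had 2354, 2594 and 2238 CPM in replicate 1 and 2405, 4233 and 4086 CPM in replicate 2 of the differentiation media, against 1023 and 844 CPM in expansion medium (1.66 ± 0.39, adjusted p = 0.00694). TSPAN9 changed by 1.31 ± 0.41 (adjusted p = 0.0384). CD81 lost its call when either expansion library was left out, at 1.81 without replicate 1 and 1.499 without replicate 2.

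Protease inhibitors of the epidermis moved both ways. Of 18 listed genes 12 were tested, and 3 rose and 1 fell, with a median of -0.10. SLPI, an inhibitor of leukocyte elastase, had 914, 1456 and 1385 CPM in replicate 1 and 8430, 3720 and 4317 CPM in replicate 2 of the differentiation media, against 41.5 and 511 CPM in expansion medium. All 6 lay above (3.56 ± 1.13, adjusted p = 0.0391), but the expansion libraries themselves differed more than 10-fold, and the call was lost in replicate 1 alone, at 2.15, without expansion replicate 1, at 2.67, and without any 1 of the replicate 2 differentiation libraries, at 2.77 to 3.29. CSTB, cystatin B, an inhibitor of cathepsins, rose by 1.56 ± 0.46 (adjusted p = 0.0268) and SERPINB8 by 1.69 ± 0.40 (adjusted p = 0.00725). SPINT2, which restrains membrane serine proteases, had 149, 121 and 122 CPM in replicate 1 and 161, 119 and 99.99 CPM in replicate 2, against 429 and 488 CPM in expansion medium (-1.85 ± 0.24, adjusted p = 4.35e-05). SPINK9, an inhibitor of kallikrein 5 that the list does not hold, was among the largest rises at 5.10 ± 1.67 (adjusted p = 0.0446), with 5.08 to 14.8 CPM in replicate 1 and 109 to 487 CPM in replicate 2, against 3.74 and 4.26 CPM in expansion medium. SPINK9 lost its call with voom, at 3.45, and in 11 of 25 alternatives in all. The 11 tested S100 genes of 14 gave 0 calls pooled, with a median of 0.84, and 5 rises with replicate 2 alone.

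Of 57 interferon response genes 25 were tested, and ISG15, OAS1 and IRF1 rose and 0 fell, where 4.40% of all tested genes rose. The median was 0.71, against -0.14 for all tested genes. OAS1, a sensor enzyme of double-stranded RNA, had 49.1, 39.4 and 88.8 CPM in replicate 1 and 84.0, 73.2 and 339 CPM in replicate 2 of the differentiation media, against 12.4 and 21.3 CPM in expansion medium (2.44 ± 0.52, adjusted p = 0.00357). IRF1, a transcription factor of the interferon response, had 25.4, 27.1 and 25.7 CPM in replicate 1 and 31.5, 22.7 and 8.69 CPM in replicate 2, against 4.89 and 3.41 CPM in expansion medium (2.45 ± 0.58, adjusted p = 0.00735). The replicate 2 library without all 3 factors was the highest for ISG15 and OAS1 and the lowest for IRF1. Without expansion replicate 1 neither OAS1 (2.09) nor IRF1 (2.75) was called. MX1, an antiviral GTPase picked after its values were seen, had a change of 1.80 (adjusted p = 0.229). Markers of immune cells were scarce: 3 of 16 were tested, and the listed genes summed to 0 to 2.52 CPM in differentiation media, against 6.62 and 6.82 CPM in expansion medium. Of the epithelial cytokine list 12 of 31 were tested and 2 rose. ICAM1, an adhesion molecule for leukocytes, had 103 to 261 CPM in differentiation media, against 25.3 and 84.9 CPM in expansion medium (1.60 ± 0.42, adjusted p = 0.0141), and CXCL14, a chemokine of epithelia, had 21.7 to 645 CPM, against 49.8 and 82.8 CPM, with overlap.

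GPRC5A and PFKP lay outside the range of all other libraries of the series. GPRC5A, an orphan receptor induced by retinoic acid, had 630, 877 and 748 CPM in replicate 1 and 595, 692 and 1000 CPM in replicate 2 of the differentiation media, against 50.7 and 172 CPM in expansion medium (2.75 ± 0.56, adjusted p = 0.00252). PFKP, the platelet form of phosphofructokinase, the committing enzyme of glycolysis, had 2053, 1520 and 1731 CPM in replicate 1 and 2538, 2633 and 2856 CPM in replicate 2, against 553 and 446 CPM in expansion medium (2.15 ± 0.42, adjusted p = 0.00196). For both, the 6 differentiation libraries lay above all 17 others, and the log2 changes in the replicate sets were 2.75 and 2.75 for GPRC5A and 1.81 and 2.42 for PFKP. GPRC5A lost its call without expansion replicate 1, at 2.12, and PFKP lost it in no setting tried. Over the series, 77 of the 429 rises had all 6 libraries above the 17 others and 206 of the 986 falls had them below, against 125 and 237 of all tested genes.

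Of 35 genes of glycolysis and hypoxia 33 were tested, and 2 rose and 3 fell, a share near the 14.5% of all tested genes, with a median of 0.21. With replicate 1 alone 2 rose and 4 fell, against 8 and 2 with replicate 2 alone, and the replicate term was called higher in replicate 2 for 10. ENO2, an isoform of enolase, had 11.9, 24.6 and 21.0 CPM in replicate 1 and 91.0, 106 and 39.1 CPM in replicate 2 of the differentiation media, against 0.576 and 0.853 CPM in expansion medium (5.78 ± 0.87, adjusted p = 2.06e-04). SLC2A1, the glucose transporter GLUT1, had 508, 76.4 and 145 CPM in replicate 1 and 224, 169 and 69.6 CPM in replicate 2, against 833 and 385 CPM in expansion medium (-1.84 ± 0.47, adjusted p = 0.0124), and the differentiation medium replicate 1 library exceeded expansion replicate 2. GAPDH fell by 1.84 ± 0.33 on the log2 scale (adjusted p = 8.49e-04), all 6 libraries below both expansion libraries.

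KLF4 and 3 immediate early genes fell. KLF4, a transcription factor needed for the skin barrier in mice, had 0 to 2.52 CPM in differentiation media, which is 0 or 1 count in each library, against 29.7 and 29.0 CPM in expansion medium (-4.09 ± 0.47, adjusted p = 1.25e-05), below all 17 other libraries. FOS, an immediate early factor, had 10.2, 0 and 0 CPM in replicate 1 and 0, 7.57 and 4.35 CPM in replicate 2 of the differentiation media, against 263 and 26.0 CPM in expansion medium (-5.38 ± 0.87, adjusted p = 3.87e-04). EGR1, also an immediate early factor, fell by 3.37 ± 0.68 and DUSP1, a phosphatase of MAP kinases, by 2.56 ± 0.74 on the log2 scale, where expansion replicate 1, at 104 CPM for EGR1 and 52.98 CPM for DUSP1, stood above replicate 2, at 7.25 and 8.53 CPM. Without expansion replicate 1 none of the 3 was called, at -2.90 for FOS, -0.43 for EGR1 and -0.69 for DUSP1. Of 27 immediate early and heat shock genes 22 were tested, and these 3 fell and 0 rose.

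RAN, the GTPase of nuclear transport, had 0 to 7.01 CPM in differentiation media, against 59.6 and 90 CPM in expansion medium (-4.20 ± 0.43, adjusted p = 8.35e-06). MRPS31, a mitochondrial ribosomal protein, had 0 to 10.2 CPM, against 92.1 and 91.7 CPM (-4.12 ± 0.42, adjusted p = 7.79e-06), and NUP54, a nuclear pore protein, 1.69 to 7.01 CPM, against 55.0 and 52.5 CPM (-3.99 ± 0.40). For NUP54 and MRPS31 the 6 libraries lay below all 17 others as well. CA2, carbonic anhydrase 2, had 220, 118 and 121 CPM in replicate 1 and 24.5, 27.8 and 8.69 CPM in replicate 2, against 1834 and 1356 CPM in expansion medium (-4.20 ± 0.53, adjusted p = 3.87e-05), the replicate sets differing again. Of 75 ribosomal protein genes 73 were tested, and 2 rose (2.74%) and 11 fell (15.1%), where 4.40% of all tested genes rose and 10.1% fell. The list's median was -0.16, against -0.14 for all tested genes. RPL17 had 17.4 to 48.0 CPM in differentiation media, against 324 and 210 CPM in expansion medium (-2.96 ± 0.32, adjusted p = 1.03e-05), and RPL27 39.1 to 84.7 CPM, against 271 and 252 CPM (-2.09 ± 0.27). RPL3 was higher, at 1922 to 5321 CPM, against 1977 and 1704 CPM (1.02 ± 0.31, adjusted p = 0.0297). Genes such as RAN, GAPDH and the ribosomal proteins have near-identical copies in mammalian genomes, how reads of copies were assigned is not given in the sources used here, and the 2 kinds of file may list the copies differently, so these values are uncertain.

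**Figure D4:**
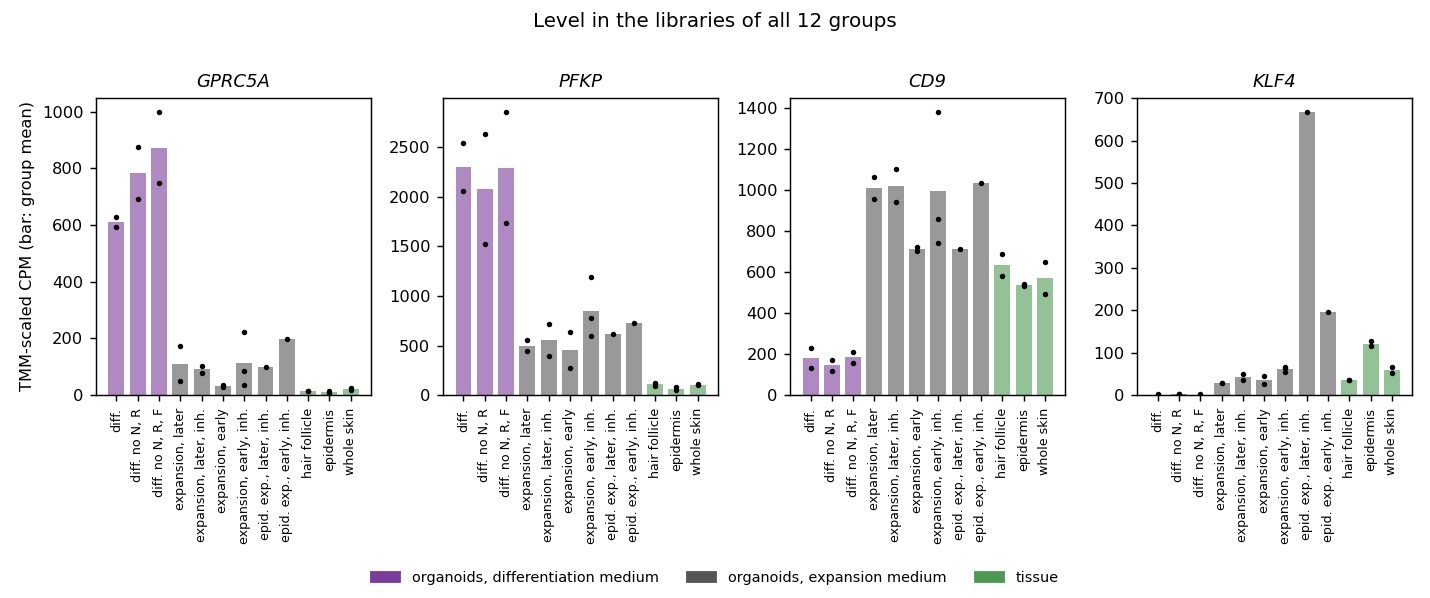
Mean level of GPRC5A, PFKP, CD9 and KLF4 in each of the 12 groups of the series, in CPM on a linear axis from 0, with each library as a point (N, Noggin; R, R-Spondin-1; F, Forskolin; inh., Tgf-beta inhibitor; epid. exp., organoids from epidermis). The 6 differentiation libraries lie above all 17 others for GPRC5A and PFKP and below them for CD9 and KLF4.

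Metabolic groups fell in part. Of 25 cholesterol synthesis genes 23 were tested, and 8 fell and 0 rose, with a median of -0.62, 5 falls with replicate 1 alone and 14 with replicate 2 alone. IDI1, an isomerase of the pathway, had 27.1, 12.3 and 14.02 CPM in replicate 1 and 17.5, 5.05 and 4.35 CPM in replicate 2 of the differentiation media, against 71.4 and 65.3 CPM in expansion medium (-2.41 ± 0.36, adjusted p = 1.85e-04), and FDFT1, squalene synthase, fell by 1.45 ± 0.35 on the log2 scale (adjusted p = 0.00858). Of 42 nuclear genes of oxidative phosphorylation 37 were tested, and 6 fell and 0 rose, with a median of -0.46, where replicate 1 alone gave 2 rises and 5 falls and replicate 2 alone 0 rises and 18 falls. The pooled falls were 16.2% of the tested members, against 10.1% of all tested genes. NDUFB3, a subunit of complex I, had 37.3, 22.2 and 35.0 CPM in replicate 1 and 17.5, 15.1 and 8.69 CPM in replicate 2, against 138 and 166 CPM in expansion medium (-2.68 ± 0.35, adjusted p = 4.93e-05). The 13 mitochondrially encoded genes gave 0 calls by edgeR. Of 24 epidermal lipid barrier genes 21 were tested, with 1 fall, ELOVL6, a fatty acid elongase, at -1.89 ± 0.58 (adjusted p = 0.0346), and a median of 0.34.

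**Figure D5:**
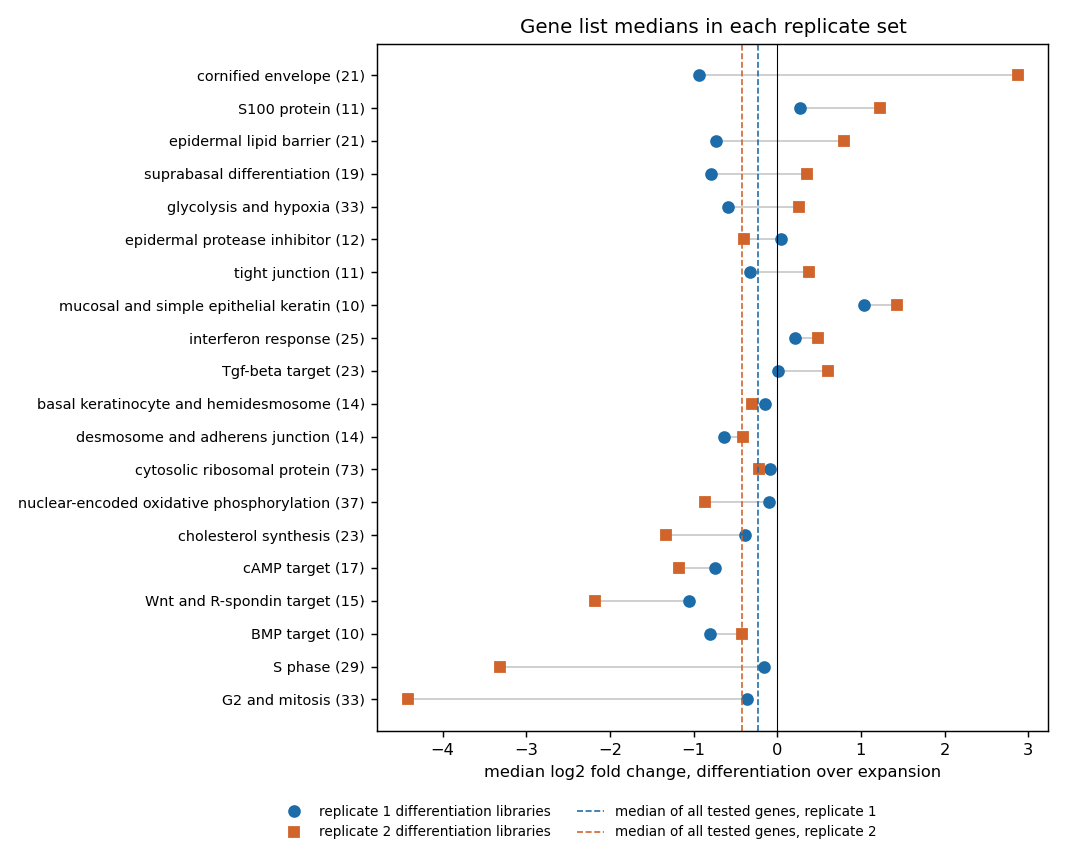
Median log2 change of 20 gene lists, with the number of tested members in brackets, in the replicate 1 (circles) and replicate 2 (squares) differentiation libraries over expansion medium, and the medians of all tested genes as dashed lines at -0.23 and -0.42. The cornified envelope list stands at -0.94 in replicate 1 and 2.88 in replicate 2, and the G2 and mitosis list at -0.37 and -4.41. The last value is imprecise, since members such as CCNB1 had 0 to 2 counts in each replicate 2 library.

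Targets of Wnt, BMP and cAMP signalling, on which R-Spondin-1, Noggin and Forskolin act, are read against the 14.5% of all tested genes that were called, and 1 of the pooled media has no factor named as withdrawn. Of 25 Wnt and R-spondin targets 15 were tested, with 1 rise and 1 fall and a median of -1.27. AXIN2, a feedback inhibitor of Wnt signalling, had 1 count among the 6 differentiation libraries, at 1.69 CPM in the first medium and 0 in the others, against 6.62 and 2.99 CPM in expansion medium (-4.37 ± 1.22, adjusted p = 0.0234). SOX9, a factor of follicle stem cells, had 0 to 5.08 CPM in replicate 1 and 7.00 to 17.7 CPM in replicate 2, against 0 and 0.427 CPM in expansion medium. Of 21 BMP targets 10 were tested: ID4, an inhibitor of helix-loop-helix factors, had 0 to 3.39 CPM in replicate 1 and 30.3 to 39.1 CPM in replicate 2, against 1.73 and 1.71 CPM in expansion medium (3.07 ± 0.97, adjusted p = 0.0384), and BAMBI, a decoy receptor, was at 0 in all 6 and so at least 1.67-fold lower, from 3 counts over the group. The ID4 call was lost with the replicate number as a block within the differentiation libraries, at 1.95 (adjusted p = 0.137), and with voom, at 1.92 (adjusted p = 0.224). ID1 had a change of -1.07 ± 0.43 (edgeR adjusted p = 0.0958). Of 24 cAMP targets 17 were tested, and 3 fell and 0 rose, with a median of -0.96: FOS and DUSP1, given above, and PTGS2, the cyclooxygenase of inflammation, at -1.96 ± 0.41 (adjusted p = 0.00310). RGS2, a regulator of G protein signals, had a change of -1.34 ± 0.59 (adjusted p = 0.129).

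Of 28 Tgf-beta targets 23 were tested, and 5 rose and 2 fell, with a median of 0.42. With replicate 1 alone 2 rose and 2 fell, against 6 and 1 with replicate 2 alone. PMEPA1, a feedback inhibitor of Tgf-beta signalling, had 61.0, 101 and 60.7 CPM in replicate 1 and 140, 93.4 and 239 CPM in replicate 2 of the differentiation media, against 31.7 and 35.0 CPM in expansion medium (1.73 ± 0.46, adjusted p = 0.0163). All 6 lay above each of the 17 other libraries, but narrowly, since the highest of the 17 had 58.05 CPM. THBS1, thrombospondin 1, which activates latent Tgf-beta, rose by 2.73 ± 0.76 (adjusted p = 0.0208), and LTBP3, which binds latent Tgf-beta, by 1.97 ± 0.45 (adjusted p = 0.00678). None of PMEPA1, THBS1 and LTBP3 was called with replicate 1 alone, with adjusted p-values of 0.0713, 0.106 and 0.0550. SNAI2, a transcription factor of migrating epithelium, fell by 1.10 ± 0.27 on the log2 scale (adjusted p = 0.00911).

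Some falls lay in genes of other cell types at trace level. Of 32 hair shaft and inner root sheath genes 15 were tested, and 9 fell and 0 rose, with a median of -5.64. Of the 15, 12 had expansion levels of at most 2% of the level in tissue. The listed genes summed to 37.0 to 157 CPM in differentiation media, against 221 and 213 CPM in expansion medium and 23626 CPM in follicles. KRTAP8-1, a keratin-associated protein of the hair shaft, was at 0 in all 6 differentiation libraries, against 74.3 and 60.6 CPM in expansion medium, which is at least 52.5-fold lower, from 3 counts over the group. KRT34, a hair keratin, was likewise at 0 in all 6 and at least 17.8-fold lower. Fibroblast and dermal papilla genes numbered 19, of which 16 were tested, with 1 rise and 4 falls, while the list summed to 629 to 1185 CPM, against 646 and 588 CPM. The collagens COL1A1, COL1A2 and COL3A1 and the proteoglycan DCN fell at expansion levels under 20 CPM, and COL5A1, another collagen, rose by 1.18 ± 0.37 (adjusted p = 0.0396). The part of such trace reads in these falls was not tested. Without genes at tissue trace level, 411 rises and 946 falls were left.

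The media were then compared with expansion medium one at a time, each against the same 2 expansion libraries. Against expansion medium, differentiation medium gave 122 rises (1.25% of tested genes) and 204 falls (2.09%), or 3.34% in all. The second medium, which lacked Noggin and R-Spondin-1, gave 226 rises (2.32%) and 343 falls (3.52%), or 5.83%. The third medium, which lacked Forskolin as well, gave 99 rises (1.02%) and 224 falls (2.30%), or 3.31%. With the 8 libraries alone each of these comparisons gave 1 call. Each count also shrank strongly when the replicate 2 library of its medium was left out, so the counts do not rank the media. In a test of the difference among the 3 media, 0 genes were called by edgeR, DESeq2 or limma's voom, with 302 at an unadjusted p under 0.05. For AXIN2, ID1 and RGS2, which respond to Wnt, BMP and cAMP signals, the unadjusted edgeR p-values among the media were 0.398, 0.742 and 0.402, which does not show that the media acted alike.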

How the data were processed

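Total RNA of bulk organoid cells was counted by CEL-seq2 on a NextSeq500, per the labels' protocols. The authors deposited 1 table per library of estimated counts per gene, some with a fraction, aligned with BWA 0.6.2-r126 to CanFam3.1 per the submitters' processing notes; the annotation, counting tool and treatment of molecular barcodes have no source here. Only the 17138 gene entries listed in both kinds of file were used, and 4 entries naming no gene were left out. Of 4187 locus names 241 were given current symbols from RefSeq, and 20 entries had been turned into dates.

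Counts were rounded and all 23 libraries were fitted with edgeR 4.0.16 in R 4.3.3 as 12 group means (TMM scaling, filterByExpr, 9753 genes, 11 residual degrees of freedom, common dispersion 0.0981). The contrast was the plain mean of the 3 differentiation groups minus expansion medium. Genes were called at a Benjamini-Hochberg adjusted p under 0.05 over all tested genes; each SE is the log2 change divided by the square root of F. CPM are scaled by TMM. The differentiation libraries hold fewer counts, so values near 1 count are imprecise. On simulated data with 9288 genes the pooled comparison called 14.9% of genes changed 2-fold, 85.1% of those changed 4-fold and 95.5% of those changed 8-fold. Only 67, 67 and 66 genes were changed at these folds, and 5.8% of the calls were unchanged genes. In the real data 1415 genes were called. The adjusted p depends on how many genes change, so these shares need not carry over. The simulated libraries were drawn independently, with no deviation shared by replicate number. Genes at low levels in expansion medium were not among those changed. The shares therefore do not hold for such genes or for genes whose replicate sets differ.

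Same-numbered libraries of the 3 differentiation media deviated together (correlations 0.592, 0.465 and 0.494). Those of expansion medium did not follow them in every pair (0.0799, 0.148 and 0.188), so the main comparison has no block. It leaves the shared deviation of the differentiation libraries out of account, so its SE and adjusted p-values can be too small. The text draws its genes from 4 sources: the 15 called rises and 15 called falls that were largest among genes bearing a symbol, whose 6 and 2 libraries did not overlap and whose higher mean reached 50 CPM; 4 markers given for these samples; for every list, the called genes of smallest p, at most 4 in either direction, or the first 2 by p in a list without calls; and 15 fixed genes. The members, the 43 gene lists and this rule were chosen with earlier results of these data known. Alternatives used DESeq2 1.42.0, limma 3.58.1 (voom), other scalings and filters, and left out libraries. Some single-gene results are not reported here.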

Additional observations from a re-analysis of the deposited data

Results flagged for a closer look

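Among the 6 differentiation libraries, 9 of the 112 called genes looked at had a library far from the other 5. The cut-off sets apart about 1 in 20 groups of 6 values drawn from a single normal distribution. That rate does not apply here, since the libraries come from 3 media and differing replicate sets. A gene with 1 count in a single library and 0 in the other 5 always passes. The replicate 2 library without Noggin, R-Spondin-1 and Forskolin stood apart in 3 of the 9 genes. It had 265 CPM of ISG15, against 50.5 to 91.2 CPM in the other differentiation libraries, 339 CPM of OAS1, against 39.4 to 88.8 CPM, and 13.04 CPM of DCN, against 0 to 2.34 CPM.

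Replicate 1 in differentiation medium had 376 CPM of the collagenase MMP1, against 13.04 to 106 CPM in the others, 508 CPM of SLC2A1, against 69.6 to 224 CPM, and 1.69 CPM of AXIN2, against 0, which is 1 count. Replicate 2 in the same medium had 466 CPM of the receptor GPRC5C, against 51.7 to 189 CPM, and 21.0 CPM of the hair gene KRTAP3-1, against 0 to 5.05 CPM. Replicate 1 without Noggin and R-Spondin-1 had 2.46 CPM of COL3A1, against 0, also 1 count.

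Outside the comparison, the entries that the differentiation files do not list held 0.0868% of the counts of expansion replicate 1 and 0.0873% of those of expansion replicate 2, and 7.85 to 8.11% in the follicle libraries.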

How the results depend on the processing

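Of the 113 called named genes, 36 kept their call in each alternative that gave them a value, among 26 run, which include the rises of CLDN4, ENO2, ISG15, KRT7 and PFKP and the falls of CD9, KLF4, RAN, CA2, NUP54 and MRPS31. The sign reversed for FST (1.70) and GPX2 (0.25) with the inhibitor cultures as the base, and for ID4 (-2.49) and KLK5 (-2.17) in replicate 1 alone; the cause was not tested.

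The pooled 1415 calls became 1914 with no filter, 1776 with voom, 237 with the 8 libraries alone, 600 with the 6 libraries as 1 group, 778 with the expansion libraries thinned to 418113 counts and 2439 with replicate 2 alone, and 413 to 1682 with 1 library left out. With the replicate number as a replicate block over the 8 libraries, which the numbers do not justify for expansion medium, there were 968 calls (378 rises, 590 falls), and 2119 with the block within the differentiation libraries. The first block ended the calls of ASPRV1, CXCL14, ID4, RPL3 and TALDO1 among genes described here, and the second those of ID4 and KLK5. For differentiation medium (326) the count was 604 with no filter, 523 with DESeq2, 1 with the 8 libraries, 171 thinned, 36 and 770 in replicates 1 and 2 alone, 819 blocked within differentiation and 12 to 436 with 1 library left out. Without Noggin and R-Spondin-1 (569) it was 985, 1 (8 libraries), 305 thinned, 59 and 1153 alone, 1046 blocked and 5 to 708. Without all 3 factors (323) it was 633, 542 (DESeq2), 1 (8 libraries), 619 with the inhibitor base, 72 and 711 alone, 816 blocked and 9 to 419. Among the media it was 0, 40 with no filter and 0 to 1 with 1 library left out.

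Depth limits low genes: 1 count is several CPM in the differentiation libraries.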

Other observations

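Genes named by the rule and not described above add to the picture. ITGA5, the fibronectin receptor subunit of migrating keratinocytes, had 69.4, 71.5 and 35.0 CPM in replicate 1 and 200, 384 and 304 CPM in replicate 2 of the differentiation media, against 14.4 and 37.5 CPM in expansion medium, and rose by 2.71 ± 0.69 (SE, edgeR adjusted p = 0.0118). MMP1, a collagenase of wound-edge keratinocytes, fell by 2.04 ± 0.54 on the log2 scale (adjusted p = 0.0151). CHAC1, induced by the unfolded protein response, rose by 2.29 ± 0.55 (adjusted p = 0.00897), while PSAT1, an enzyme of serine synthesis, fell by 1.80 ± 0.46 (adjusted p = 0.0125). None of ITGA5, MMP1, CHAC1 and PSAT1 was called with replicate 1 alone. Of the 15 tested oxidative stress genes, TALDO1, of the pentose phosphate pathway, rose and the thioredoxin TXN and the glutathione peroxidase GPX2 fell. The GPX2 fall was weak, at -1.12 ± 0.37 (edgeR adjusted p = 0.0483). It had 181.7 to 494.5 CPM in differentiation media, against 451 and 821 CPM in expansion medium, with overlap. TALDO1 kept its call in 17 of 26 alternatives, TXN in 24 and GPX2 in 11. Of 19 Notch genes 12 were tested and of 17 EGF ligands and receptors 11 were tested, each with 0 calls by edgeR.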
